A study of Macaca fascicularis with 6 samples.

Results

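Fatty acid oxidation genes and targets of PPARA were examined in the livers of cynomolgus macaques, Macaca fascicularis, that had been given either an LXR ligand or vehicle. LXR is the liver X receptor. The set was fixed by name as 32 genes, and a gene was measured by array probe sets whose only annotated symbol was that gene. Of the 32 genes, 31 had such a probe set, out of 19775 genes measured this way in all. ACOT1, an acyl-CoA thioesterase, shared its probe set with ACOT2 and was not analysed here. Where a gene had several probe sets the brightest over the 6 arrays stood for it, and all 31 were bright enough to be tested.

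Total RNA was hybridised to Affymetrix arrays with 1 animal on each array, 3 animals given the ligand and 3 given vehicle. The ligand arrays carry the letters GW in their titles, and the compound, dose, length of treatment, age and feeding state are not given in the sources used here. The probe sets were designed against human transcripts, so a macaque gene was read by human probes. Values are MAS5 signals, intensities in arbitrary units, and differences are ligand minus vehicle on the scale of log2(signal + 16), which understates the change of dim genes.

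The oxidation of fatty acids in liver starts with activation to acyl-CoA and transfer into mitochondria through the carnitine shuttle. There a repeated cycle of dehydrogenation, hydration, dehydrogenation and thiolysis shortens the chain and yields acetyl-CoA, which in fasting is turned into ketone bodies. PPARA is a nuclear receptor that binds fatty acids and switches on many of these genes in the fasted liver. LXR, the receptor of the ligand given here, is by contrast known for driving sterol efflux and fatty acid synthesis.

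As a check of the treatment label, the known LXR target SREBF1, a transcription factor of lipid synthesis, had signals of 3826, 1289 and 3450 on ligand arrays 1 to 3, against 337, 408 and 541 on vehicle arrays 1 to 3. The groups did not overlap for SREBF1, nor for the LXR targets ABCG1 and MYLIP, all higher with the ligand. The median signal of an array was 129 to 139 with the ligand and 111 to 139 with vehicle, and Pearson's r over the tested probe sets, which are not independent of each other, ranged from 0.903 to 0.919 among arrays of the same group and from 0.90 to 0.922 among arrays of different groups. Ligand array 1 stood apart on the first principal component of all tested probe sets, at -89.8 against 0.632 to 36.8 for the other 5 arrays. The summed signal of 10 hepatocyte markers was 692611 to 750511 on ligand arrays and 631728 to 759802 on vehicle arrays. Albumin (ALB) had a mean signal of 144576 with the ligand and 137238 with vehicle. Of the 10 hepatocyte markers 6 were higher and 4 lower with the ligand. The lowest of them was TF, at a log2 difference of -0.71 with overlapping groups. Of the macrophage markers, all 7 tested ones, of 9 with a probe set and 10 listed, had a higher mean with the ligand. The summed signal over the 9 was 11044 to 12529 with the ligand, against 5063 to 7361 with vehicle. None of the 7 passed limma's test, described below, and the smallest limma adjusted p was 0.387, for MARCO. TIMD4 and CLEC4F, too dim to be tested, were lower with the ligand, at log2 differences of -0.55 and -1.76. The sum of 9 stellate cell and fibroblast markers was 32689 to 45713 with the ligand and 17027 to 26767 with vehicle. That sum was mostly COL3A1 and DCN, and of the 9 markers 7 were higher and 2, COL1A1 and PDGFRB, lower. Of 10 endothelial markers 9 were higher and VWF was lower, at a log2 difference of -3.39, with a summed signal of 13321 to 16539 with the ligand and 11068 to 14157 with vehicle. No marker was listed at 0. The part of cell composition in the values below was not tested, and in a piece of tissue fewer cells of a type and less RNA per cell cannot be told apart.

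Transcripts of fatty acid oxidation had no common direction between ligand and vehicle livers. Of the 31 genes 16 had a higher and 15 a lower mean with the ligand (50.3% of all 13349 tested genes were higher), and their median log2 difference was 0.086, against 0.0027 over all tested genes. No gene of the set passed limma's test when p was adjusted (Benjamini-Hochberg) across the 27304 tested probe sets, of which 0% passed at 0.05. The LXR targets SREBF1, ABCG1 and MYLIP did not pass either, with limma adjusted p of 0.370, 0.387 and 0.561. Not passing therefore does not show that a gene was unchanged. Without adjustment, 1 of the 31 genes had p under 0.05 (6.12% of all tested genes did). This was PPARA itself, which was lower with the ligand (2.42% of all tested genes were lower at that p). On the brightest probe set, the 95% confidence interval of 24 of the 31 genes lay within a 2-fold change in either direction. The other 7 were CPT1A, HADHA, ACAA1, FGF21, CYP4A11, VNN1 and FABP1. This limit does not cover dimmer probe sets of the 24 genes. Among those, ACAA2 was at -2.55 ± 0.75 (SE) on 241114_s_at and PPARA at -0.81 ± 0.44 (SE) on 1558631_at. The count of genes with a higher mean rested on single arrays, as it was 24 of 31 without ligand array 3, 22 without vehicle array 1, 13 without ligand array 1 and 10 without vehicle array 3. Without ligand array 1, which stood apart over all probe sets, the median log2 difference of the set was -0.12 and the log2 difference of PPARA was -0.56. In that setting 4 of the 31 genes had an unadjusted limma p under 0.05 (5.46% of all tested probe sets did). These were ACAA1, CYP4A11, HADHA and PPARA, all lower with the ligand, and none passed with adjustment.

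**Figure D1:**
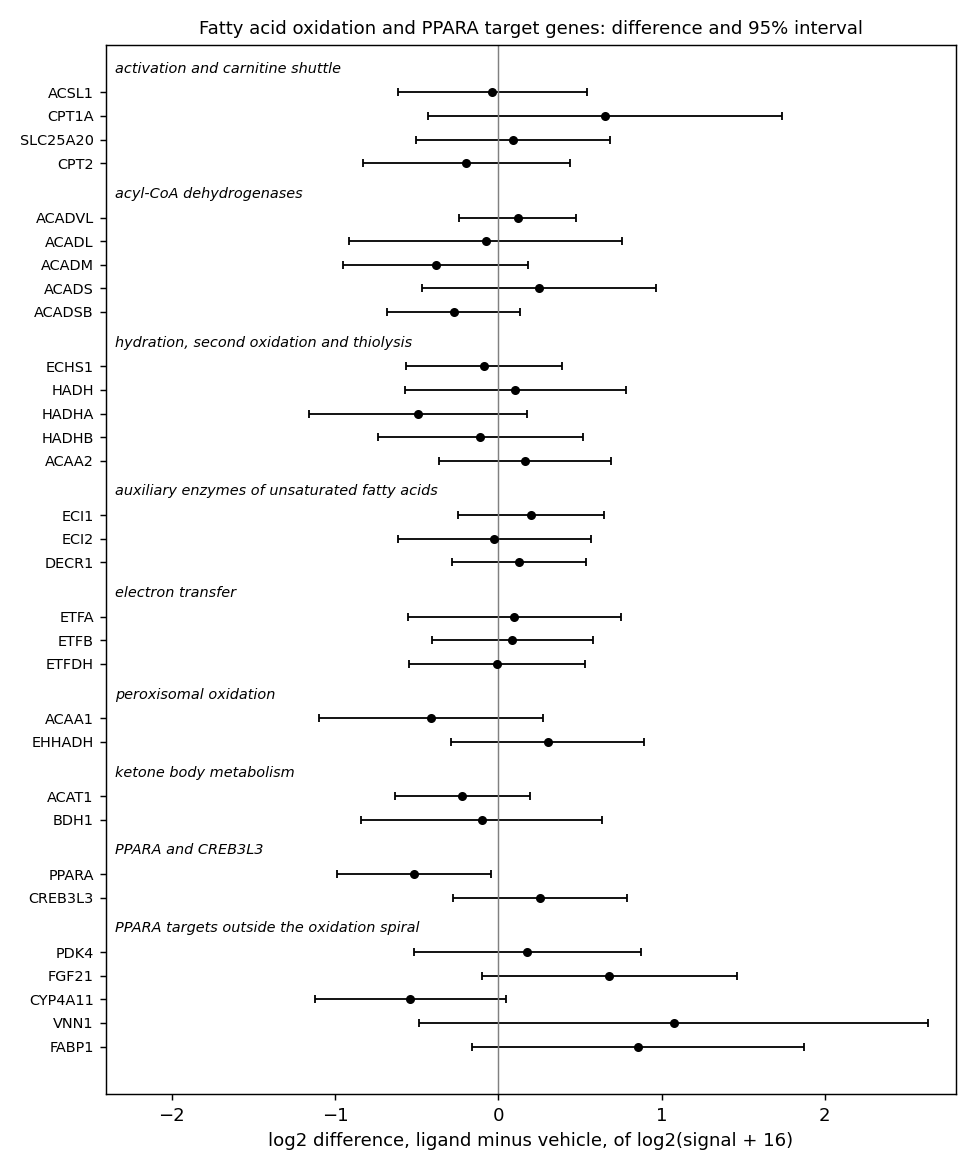
Difference between ligand and vehicle livers (x axis, log2 units, ligand minus vehicle) for the brightest probe set of each of the 31 genes, grouped by role. Points are differences of means of 3 animals against 3 and bars are 95% confidence intervals from limma. All intervals except that of PPARA include 0.

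PPARA, the receptor that drives the oxidation genes, had signals of 3115, 2548 and 3234 on the ligand arrays, against 4849, 3371 and 4620 on the vehicle arrays. All 3 ligand arrays lay below all 3 vehicle arrays, although the gap between ligand array 3 and vehicle array 2 was small. It was the only gene of the 31 whose groups did not overlap in the downward direction (5.21% of all tested genes), and none was free of overlap in the upward direction (6.21%). The mean signal was 2966 ± 367 with the ligand and 4280 ± 796 with vehicle (SD, n = 3 each), 1.43-fold lower, at a log2 difference of -0.52 ± 0.21 (SE) with a 95% interval from -0.99 to -0.044. In limma's test this gave an unadjusted p = 0.0350 and an adjusted p = 0.874, so PPARA did not pass. Over the 18 alternative settings the limma adjusted p of PPARA was 0.763 to 0.975 and its log2 difference -0.68 to -0.41.

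PPARA was read by 9 probe sets, of which 6 were bright enough to be tested, and all 6 had a lower mean with the ligand, with log2 differences of -0.17 to -0.81. These probe sets read the same RNA on the same arrays and are not independent measurements. On probe set 206870_at the signals were 1529, 1115 and 1198 with the ligand, against 2478, 1594 and 1716 with vehicle, again without overlap. The limma log2 difference there was -0.57 ± 0.25 (SE), with unadjusted p = 0.0418 and adjusted p = 0.879. On 223437_at the groups overlapped, with 3374, 2242 and 2078 with the ligand, against 5905, 1373 and 2747 with vehicle. The log2 difference on 223437_at was -0.17 ± 0.44 (SE). They overlapped on 244689_at and 223438_s_at too. The widest gap, -0.81 ± 0.44 (SE), was on 1558631_at, with 283, 301 and 221 with the ligand, against 768, 218 and 648 with vehicle. There vehicle array 2 lay just below the ligand arrays. The 3 PPARA probe sets too dim to be tested had log2 differences of -0.084, 0.16 and 1.25.

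CREB3L3, a liver transcription factor that acts with PPARA in fasting, had mean signals of 652 ± 33.7 with the ligand and 545 ± 69.9 with vehicle (SD, n = 3 each). Its log2 difference was 0.26 ± 0.24 (SE), within its error.

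The targets of PPARA outside the oxidation cycle had higher means with the ligand in 4 of 5 cases, though none passed. FGF21, a fasting hormone secreted by the liver, had signals of 399, 366 and 279 with the ligand, against 157, 192 and 300 with vehicle. Vehicle array 3 reached the range of the ligand arrays, so the groups overlapped. The log2 difference of FGF21 was 0.68 ± 0.35 (SE), with a 95% interval from -0.098 to 1.46.

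FABP1, the fatty acid binding protein of the hepatocyte cytosol, had signals of 2315, 2706 and 1199 with the ligand, against 2302, 626 and 859 with vehicle, and is given by array because its interval is wide. Vehicle array 1 lay among the ligand arrays, and the log2 difference of 0.86 ± 0.46 (SE) was 1.40 without that array and 0.47 without vehicle array 2. The dimmer FABP1 probe set had a log2 difference of 0.32 ± 0.33 (SE). VNN1, a pantetheinase, had 274, 258 and 217 with the ligand, against 226, 19.3 and 217 with vehicle, and is given by array for the same reason. The difference of VNN1 rested on the dim value of vehicle array 2: it was 1.07 ± 0.70 (SE) with that array and 0.16 without it. PDK4, the kinase that switches off pyruvate dehydrogenase when fatty acids are burned, had 1287, 2619 and 2320 with the ligand, against 1895, 2257 and 1262 with vehicle. The groups of PDK4 overlapped widely, at a log2 difference of 0.18 ± 0.31 (SE), and all 3 of its probe sets had a higher mean with the ligand (0.040 to 0.49).

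CYP4A11, which hydroxylates the far end of fatty acids in microsomes, was the exception among these targets. Its signals were 6259, 5208 and 3251 with the ligand, against 7862, 7635 and 5439 with vehicle. Only ligand array 1 reached the range of the vehicle arrays. The log2 difference was -0.54 ± 0.26 (SE), with a 95% interval from -1.12 to 0.045, a limma unadjusted p = 0.0669 and adjusted p = 0.880. It was -0.27 without ligand array 3 and -0.74 without ligand array 1. Its dimmer probe set was also lower, at -0.33. CYP4A11 has a near-identical copy, CYP4A22. Probe sets annotated with both were not used, but part of the signal may still come from the copy, which was not tested.

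**Figure D2:**
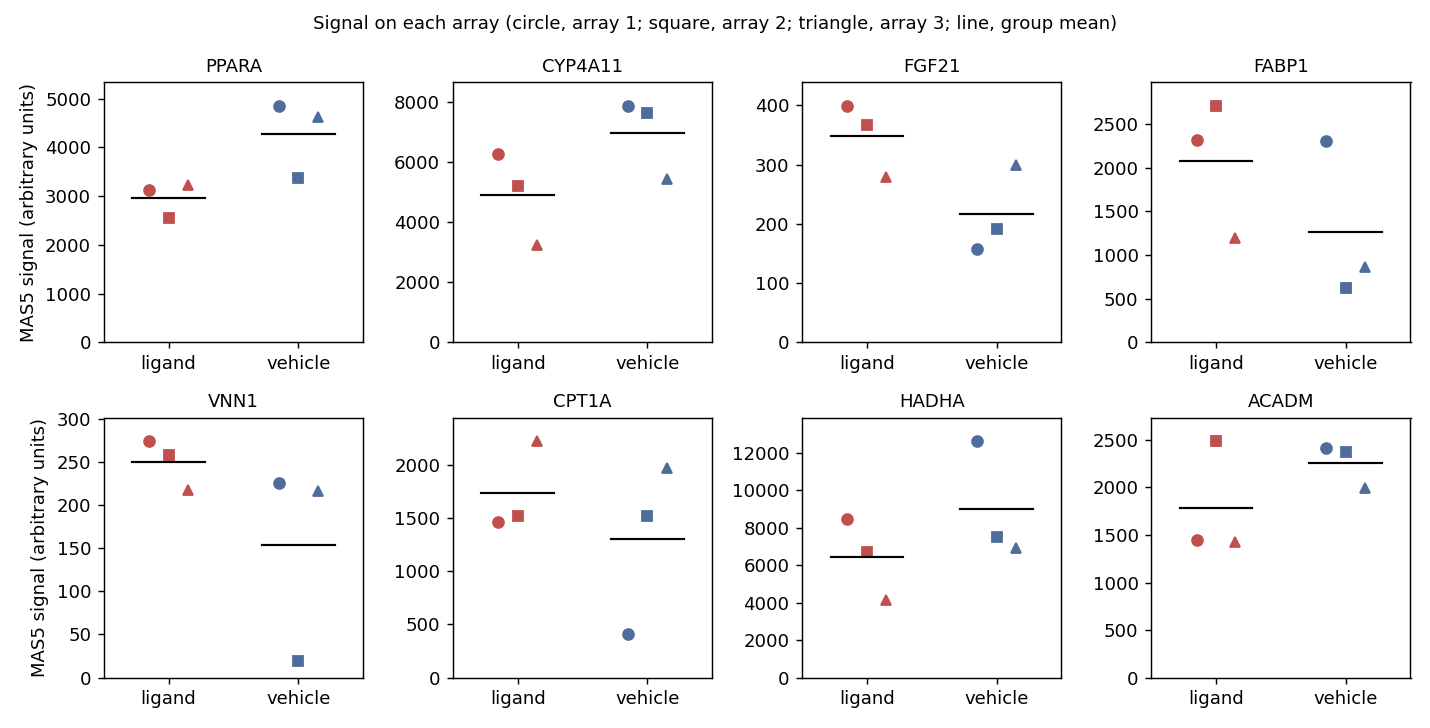
MAS5 signal (y axis, linear, arbitrary units) of 8 genes on each ligand and vehicle array, with the group mean as a line. For PPARA all ligand arrays lie below all vehicle arrays, while for the other 7 genes the groups overlap.

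At the entry of the pathway, CPT1A, the rate-setting acyltransferase of the carnitine shuttle, had signals of 1459, 1521 and 2222 with the ligand, against 411, 1517 and 1975 with vehicle. Apart from the low vehicle array 1, the vehicle values lay within the range of the ligand values. The log2 difference was 0.65 ± 0.49 (SE), and -0.024 without vehicle array 1. The other 3 CPT1A probe sets went the opposite way, at -0.55, -0.50 and -0.45. On 210687_at the signals were 487, 599 and 545 with the ligand, against 869, 630 and 845 with vehicle, without overlap, at a limma unadjusted p = 0.0712. The direction of CPT1A therefore depended on which probe set was read. SLC25A20, the carnitine carrier, CPT2, the transferase of the inner membrane, and ACSL1, the acyl-CoA synthetase, had log2 differences of 0.089 ± 0.27, -0.20 ± 0.29 and -0.037 ± 0.26 (SE), all within their errors.

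Among the acyl-CoA dehydrogenases, which start each turn of the cycle, ACADM, the medium-chain enzyme, had signals of 1444, 2485 and 1426 with the ligand, against 2419, 2373 and 1993 with vehicle. Ligand array 2 was the highest of all 6 arrays and the other ligand arrays were the lowest. The log2 difference of ACADM was -0.38 ± 0.26 (SE), and it was -0.65 without ligand array 2 and -0.25 without ligand array 3. The very-long-chain enzyme ACADVL had the narrowest interval of the set, from -0.24 to 0.48 around 0.12. ACADL, ACADS and ACADSB, the enzymes of long, short and branched chains, had log2 differences of -0.078, 0.25 and -0.27, and 3 of these 5 dehydrogenases were lower with the ligand.

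HADHA, the alpha subunit of the mitochondrial trifunctional protein, had signals of 8502, 6690 and 4155 with the ligand, against 12625, 7504 and 6933 with vehicle. The log2 difference was -0.49 ± 0.30 (SE), with overlapping groups, and was -0.20 without ligand array 3, -0.22 without vehicle array 1 and -0.72 without ligand array 1. Probe set 208629_s_at of HADHA gave 1099, 1132 and 885 with the ligand, against 1784, 1438 and 1471 with vehicle, without overlap, at -0.59 ± 0.22 (SE) and a limma unadjusted p = 0.0241 (adjusted p = 0.859). Probe set 208630_at gave 681, 830 and 678 with the ligand, against 556, 562 and 638 with vehicle, also without overlap but in the opposite direction. For HADHA, too, the direction thus differed between probe sets of the gene.

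HADHB, the beta subunit, had a log2 difference of -0.11 ± 0.28 (SE), and ECHS1, the short-chain hydratase, -0.089 ± 0.22 (SE). HADH, the short-chain hydroxyacyl-CoA dehydrogenase, was higher on all 3 of its probe sets, at 0.10, 0.55 and 0.28. On 211569_s_at HADH had 2608, 2291 and 1898 with the ligand, against 1752, 1488 and 1364 with vehicle, without overlap, at a limma unadjusted p = 0.0286 (adjusted p = 0.873).

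ACAA2, the mitochondrial thiolase that closes the cycle, had mean signals of 42369 ± 10928 with the ligand and 37915 ± 9206 with vehicle (SD, n = 3 each) on its brightest probe set, a log2 difference of 0.16 ± 0.24 (SE). Its dimmer probe set 241114_s_at, named after its values were seen, gave 481, 623 and 608 with the ligand, against 8662, 681 and 6549 with vehicle. Vehicle arrays 1 and 3 were far above the other 4 arrays, and vehicle array 2 lay close to the ligand arrays. At -2.55 ± 0.75 (SE) this was the largest log2 difference among the 56 tested probe sets of the 31 genes, with a limma unadjusted p = 0.00658 and adjusted p = 0.829. The brightest ACAA2 probe set did not show the high values of vehicle arrays 1 and 3, where it read 42812 and 27296. Whether 241114_s_at reads the same sequence in every animal was not tested, so its difference may not be one of transcript level.

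**Figure D3:**
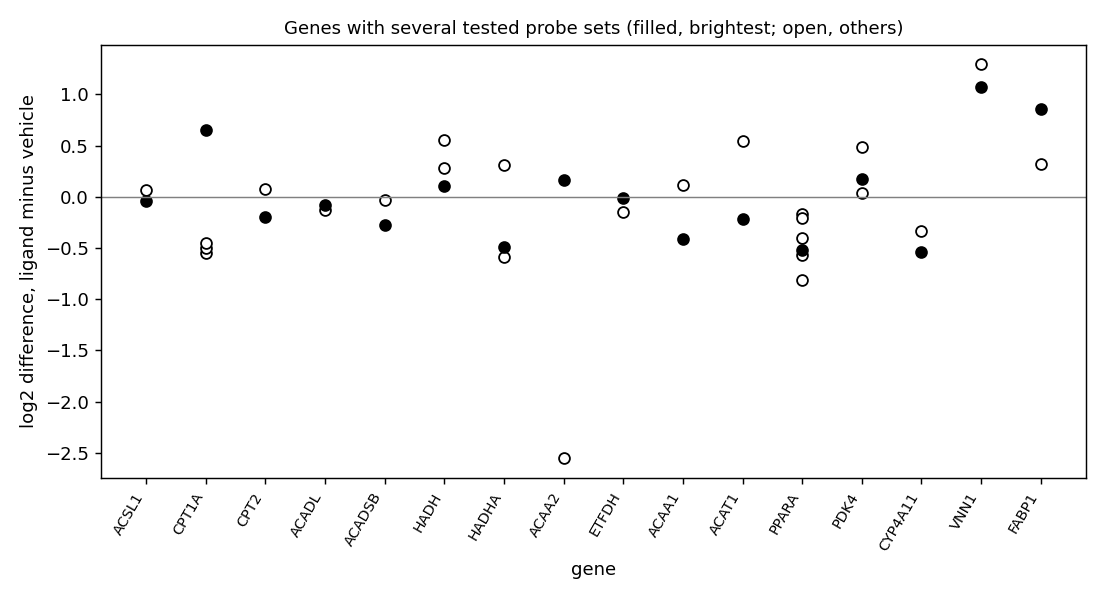
Log2 difference (y axis, ligand minus vehicle) of every tested probe set of the 16 genes with more than 1, the brightest filled and the others open. The 6 PPARA probe sets all lie below 0, while CPT1A and HADHA have probe sets on both sides and ACAA2 has one at -2.55.

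Altogether 16 genes had several tested probe sets, and in 7 of them the probe sets differed in sign. Of the 56 tested probe sets of the set, 27 were higher and 29 lower, 5 had an unadjusted p under 0.05 in limma's test (5.58% of all probe sets did), 2 were higher without overlap (5.99% of all) and 5 lower without overlap (4.96% of all). These 5 with p under 0.05 were 2 of PPARA and 1 each of HADH, HADHA and ACAA2.

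None of the remaining enzymes passed, and the groups overlapped for each. The isomerases ECI1 and ECI2 and the reductase DECR1, which prepare unsaturated fatty acids for the cycle, had log2 differences of 0.20, -0.025 and 0.13. ETFA and ETFB, the subunits of the flavoprotein that takes up electrons from the dehydrogenases, had 0.096 and 0.086, and ETFDH, which passes them to ubiquinone, had -0.0070. In peroxisomes, the bifunctional enzyme EHHADH had 0.30 ± 0.27 (SE) and the thiolase ACAA1 -0.41 ± 0.31 (SE), and ACAA1 was -0.75 without ligand array 1, -0.19 without vehicle array 1 and 0.12 on its dimmer probe set. For ketone bodies, ACAT1, which joins acetyl-CoA units, had -0.22 ± 0.19 (SE), and BDH1, which reduces acetoacetate, -0.10 ± 0.33 (SE).

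Within each group the genes varied together from animal to animal. On ligand array 3, 25 of the 31 genes lay below both other ligand arrays (31.4% of all tested genes did), with a median 0.51 log2 units below the mean of those 2 arrays, against 0.038 above it for all tested genes. Among the 24 enzymes of activation, oxidation and ketone bodies, 21 were lowest of the ligand group there, and the 3 others were CPT1A, ACADSB and ECI2. Vehicle array 3 was similar, with 19 of the 31 genes below both other vehicle arrays (29.6% of all tested genes). Vehicle array 1 was the highest of its group for 21 of the 31 genes (28.7% of all tested genes). ETFA, for example, had 20165, 18323 and 9358 with the ligand, against 18268, 13753 and 11260 with vehicle, and SLC25A20 had 13746, 11310 and 8151, against 13488, 10954 and 7120. For both genes array 1 was the highest and array 3 the lowest of each group, and the group ranges overlapped.

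**Figure D4:**
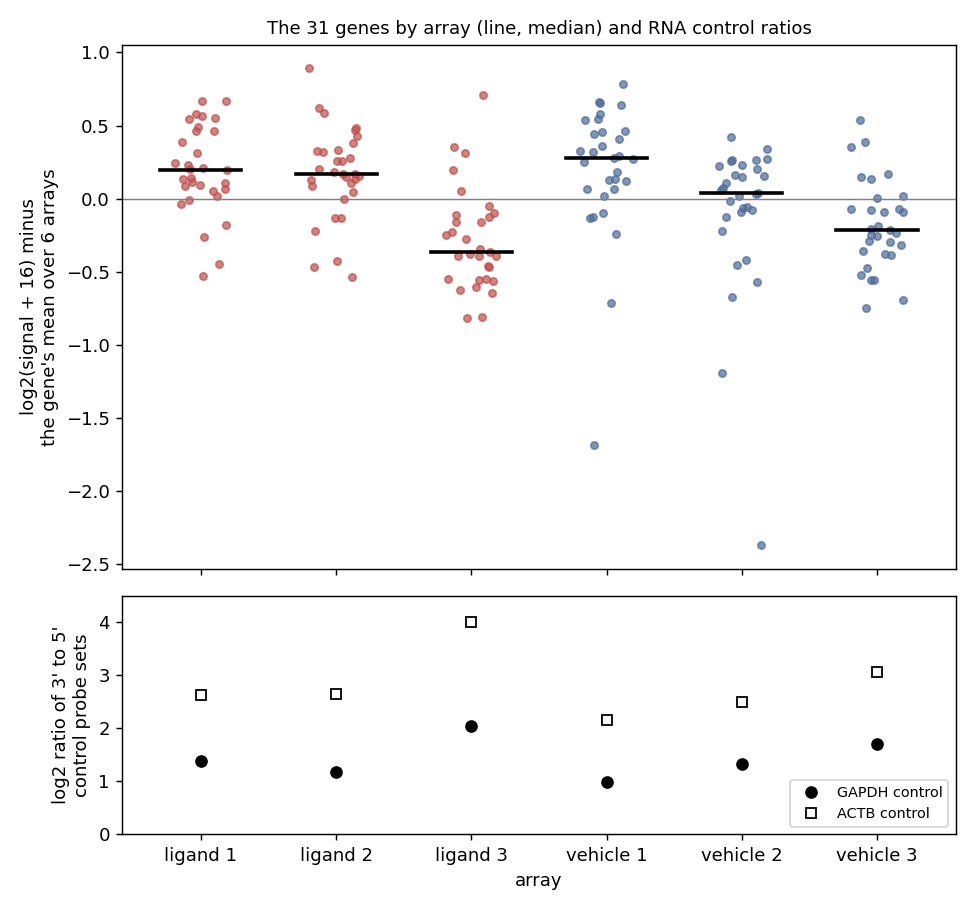
Top, log2(signal + 16) of each of the 31 genes minus its own mean over the 6 arrays (y axis), by array, with the median as a line. Bottom, log2 ratio of the 3' over the 5' control probes of GAPDH and ACTB on the same arrays. Ligand array 3 and vehicle array 3 have the lowest medians and the highest control ratios of their groups.

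The same 2 arrays had the highest ratio of the 3' over the 5' control probes, a measure of RNA integrity and labelling that is higher where RNA is shorter. The log2 ratio for ACTB was 2.62, 2.65 and 4.003 on the ligand arrays and 2.15, 2.50 and 3.06 on the vehicle arrays. For GAPDH it was 1.38, 1.17 and 2.05 on the ligand arrays and 0.991, 1.32 and 1.70 on the vehicle arrays. The groups did not differ in either ratio beyond the spread of the arrays (exact two-sided permutation p = 0.4 for ACTB and 0.6 for GAPDH, where 0.1 is the smallest that 3 against 3 arrays allow). The sum of stellate cell markers was 32960, 32689 and 45713 on the ligand arrays, in order, and 25998, 17027 and 26767 on the vehicle arrays. The sum of hepatocyte markers was 750511, 692611 and 713321 on the ligand arrays and 631728, 759802 and 695489 on the vehicle arrays. The part of RNA quality or tissue composition in the low values of ligand array 3 and vehicle array 3 was not tested. With ligand array 3 and vehicle array 3 both left out, an alternative chosen after the data were seen, 17 of the 31 genes were higher, the median log2 difference was 0.069, the log2 difference of PPARA was -0.52 and none passed.

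Other genes of the pathway gave no call either. Of 53 further genes of peroxisomal oxidation, uptake, ketone bodies, regulation and PPARA response, 41 had a probe set with 1 symbol and 39 were bright enough to be tested. With the ligand 17 were higher and 22 lower, 0 passed in limma's test with adjustment over all probe sets (0 had an unadjusted p under 0.05), and the median log2 difference was -0.027. Of the 8 tested regulators, 7 were lower, RXRA by the least at -0.016, and 1, PPARG, was higher at 0.079. SIRT3, a mitochondrial deacetylase among them, had 1031, 858 and 976 with the ligand, against 1193, 1227 and 1601 with vehicle. SIRT3 was the only 1 of the 39 genes lower without overlap of the groups (5.21% of all tested genes were). Its log2 difference was -0.47 ± 0.23 (SE), with a limma unadjusted p = 0.0624 and adjusted p = 0.880.

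The next smallest p-values of that list belonged to CD36, MLYCD, CROT, DECR2 and BDH2. CD36, a receptor for fatty acid uptake that macrophages also carry, had 7306, 3721 and 2220 with the ligand, against 3388, 1499 and 1951 with vehicle, with overlapping groups and a log2 difference of 0.86 ± 0.42 (SE). MLYCD, which breaks down the CPT1A inhibitor malonyl-CoA, had 975, 535 and 652 with the ligand, against 994, 1060 and 952 with vehicle, at -0.51 ± 0.27 (SE). For MLYCD, only ligand array 1 lay in the range of the vehicle arrays. The peroxisomal enzymes CROT and DECR2 had log2 differences of 0.74 ± 0.39 and 0.72 ± 0.38 (SE), and BDH2, a cytosolic dehydrogenase, 0.54 ± 0.29 (SE), each with overlapping groups.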

How the data were processed

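The authors deposited intensity values without a log, which the submitters' processing notes name as MAS5; version, scaling target and filters are not given in the sources used here. The 2% trimmed mean was 500.1 on every array, so the scaling was kept. Groups came from the sample titles. Probe sets were named from the platform annotation. Leaving out 62 controls, the 27304 probe sets whose mean signal reached 129, the median over all probe sets, entered the test on log2(signal + 16) with lmFit and eBayes with an intensity trend (limma 3.58.1, R 4.3.3), two-sided, with Benjamini-Hochberg adjustment over all of them and a threshold of 0.05. The code was tested on simulated data. Figures were drawn with matplotlib 3.10.9.

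The genes, lists and tests were chosen with earlier results of these data known. Arrays were given for PPARA, CPT1A, PDK4, FGF21, ACADM, HADHA, CYP4A11, genes with an unadjusted p under 0.05 or no overlap of the groups, and up to 6 other pathway genes by smallest p; FABP1, VNN1, ETFA, SLC25A20 and the further probe sets were added after their values were seen. Whether the replicate numbers pair the animals is not given in the sources used here. Same-numbered deviations correlated at -0.031 to 0.070, which does not settle it, and the main test used no pairing. With 3 animals a group, the number of arrays limits the precision of every value.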

Additional observations from a re-analysis of the deposited data

How the results depend on the processing

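In every setting tried no gene of the set passed and no other pathway gene passed. Over all probe sets 0 passed, with 1523 at an unadjusted p under 0.05 in limma; leaving out 1 array gave 0 to 1. The settings were quantile normalization, centring on medians, pseudocounts of 1 and 64, a stricter filter or none, eBayes without trend or robust, array weights, the replicate block, each array left out, a threshold of 0.10 and averaging the probe sets of a gene. PPARA alone had an unadjusted p under 0.05 as reported, and it lost this without the intensity trend, without ligand array 2, vehicle array 1 or vehicle array 3, without both arrays numbered 3 and with probe sets averaged. Other genes were under 0.05 there: ACADM without ligand array 2, FABP1 without vehicle array 1, FGF21, CYP4A11 and CPT1A without vehicle array 3, FGF21 without both arrays numbered 3, ACAA2 and CYP4A11 with probe sets averaged, and none without the trend. Without ligand array 1, ACAA1, CYP4A11 and HADHA were under 0.05 beside PPARA, and without ligand array 3 FABP1 was. With the replicate block, 4 of the 31 genes were under 0.05 (CYP4A11, PPARA, HADHA and FABP1), against 6.25% of all tested probe sets. Over the settings this share was 4.80% to 6.39% of all tested probe sets or genes. With the block the median log2 difference is 0.086 by construction. In the check of pairing, 4 of 6 arrays correlated best with their own number. The same-numbered correlations were only -0.031 to 0.070, so this does not settle whether the numbers pair the animals. The count of genes higher was 10 to 24 when arrays were left out. No gene changed sign under another pseudocount, scaling or array weighting (filter, variance model and block cannot change a difference here); 15 of 31 did when 1 array was left out, and ACADL, ETFDH and PDK4 did without both arrays numbered 3 (0.23, 0.081 and -0.17).

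With 1 array left out, log2 differences ran from -0.060 to 0.32 for ACAA2, -0.43 to 0.23 for ACADL, -0.33 to 0.15 for ACSL1, -0.47 to 0.16 for BDH1, -0.024 to 1.09 for CPT1A, -0.42 to 0.067 for CPT2, -0.23 to 0.079 for ECHS1, -0.27 to 0.18 for ECI2, -0.11 to 0.44 for ETFA, -0.084 to 0.28 for ETFB, -0.12 to 0.21 for ETFDH, -0.15 to 0.41 for HADH, -0.30 to 0.16 for HADHB, -0.17 to 0.49 for PDK4 (the low end without both arrays numbered 3) and -0.17 to 0.29 for SLC25A20. Without a sign change, ACADS ran from 0.021 to 0.51, ACAT1 from -0.32 to -0.040, EHHADH from 0.069 to 0.47, DECR1 from 0.013 to 0.27, ACADVL from 0.032 to 0.21, ACADSB from -0.39 to -0.17, ECI1 from 0.12 to 0.33 and FGF21 from 0.49 to 0.93. When the probe sets of a gene were averaged, 4 genes changed sign: ACAA2 to -1.19, CPT1A to -0.21, ACAT1 to 0.16 and ACSL1 to 0.013, since other probe sets enter. The causes of the other sign changes were not tested. Without detection calls, an absent transcript looks the same as a dim one here.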
